A study of Homo sapiens with 10 samples.

Results

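The transcriptional response of HEK293T cells to a 10-fold excess of cysteine in the culture medium was described here gene by gene and by function. A gene was taken as a member if its deposited value reached 10 in 3 or more of the 8 libraries from excess-cysteine and complete medium, which gave 28519 of the 78894 gene IDs in the table. Of these, 28482 are nuclear genes and 37 are encoded in mitochondrial DNA. HEK293T is a human embryonic kidney line transformed with adenoviral DNA and carrying the SV40 large T antigen. The series holds 4 libraries from cells in complete medium (labelled 1X-Cys), 4 from cells in excess cysteine (10X-Cys) and 2 from cells in cysteine-free medium (0X-Cys), each labelled as a biological replicate and made from poly(A)-selected RNA with a strand-marking kit. All cells are the unmodified line, with no further agent or allele in the labels, and so the groups stand for 1 immortalised line in culture. Cells were kept in each of the 3 media for 24 h by the study's description of the cysteine treatment. Nothing says whether the replicates came from separate culture days, so that the p-values measure the spread between these libraries, which may be partly technical.

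Cysteine is a sulfur amino acid whose thiol is the building block of glutathione, iron-sulfur clusters and coenzyme A, and cells both import it, largely as its disulfide cystine, and make it from methionine through transsulfuration. Free cysteine is kept low in mammalian cells, since its thiol reacts with metals and disulfides, and surplus is oxidised to taurine and sulfate or broken down with release of sulfide. Among the stress pathways that read amino acid supply and thiol state are the integrated stress response, in which phosphorylation of the initiation factor eIF2 favours translation of the transcription factor ATF4, the unfolded protein responses of the endoplasmic reticulum and the cytosol, and the KEAP1-NRF2 pathway, in which modified KEAP1 cysteines release the antioxidant transcription factor NRF2.

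The deposited values are read counts per gene divided by a size factor for each library, and are called normalised values here. Each library held between 34836014 and 61654861 recovered reads on genes. The embryonic kidney markers were present in both media, with 11 of 12 kept and a summed value of 7270 to 8260 in complete and 7770 to 8300 in excess medium, and the blood markers PTPRC, CD3E and HBB were at or near 0. Summed values of the proximal tubule and liver markers were 1060 to 1250 in complete and 817 to 905 in excess medium, and those of the fibroblast markers 941 to 1140 and 682 to 772, of which COL1A1 made up most. In bulk RNA, fewer cells of a kind and less RNA per cell cannot be told apart. The share of reads on mitochondrial DNA was 4.51 to 5.05% in complete and 0.117 to 0.146% in excess medium, the 100 genes with most reads took 16.4 to 17.1% and 14.0 to 14.5%, and 40180 to 41200 and 42149 to 45562 gene IDs had a value above 0. The part of these library-wide shifts in the results was not tested.

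Excess cysteine changed a large part of the transcriptome. By limma on log2(value + 1) at an adjusted p of 0.01 or less, 13373 of the 28519 genes (46.9%) differed between excess and complete medium, 6721 (23.6%) higher and 6652 (23.3%) lower in excess. At a change of 2-fold or more as well, 1853 genes were higher and 1082 lower. The values of the 4 excess libraries did not overlap with those of the 4 complete libraries in 14942 genes (52.4%); for any such gene the exact 2-sided permutation test gives 0.029, the smallest p that 4 against 4 libraries allow. The median log2 fold change of all genes kept was 0.02. With each library scaled to the same total the median was 0.12, and 61.8% of the calls were higher in excess against 50.3% with the deposited scaling, so the balance of directions depended on the scaling. The 37 genes of mitochondrial DNA were all lower (median -6.63 on the log2 scale), and 13 of 16 nuclear pseudogenes named after them were lower too (median -4.64), for which reads shared with the mitochondrial copies cannot be told apart.

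Among nuclear genes, protein-coding genes were called most often. Of 15554 kept, 4542 were higher and 4858 lower (60.4%), against 1211 and 1009 of 6621 long non-coding RNA genes (33.5%) and 427 and 275 of 2502 pseudogenes. Most of these changes were small, with 48.0% of the called protein-coding genes under 0.5 on the log2 scale. The large changes were mostly increases: 53 protein-coding genes rose and 5 fell by 3 or more on the log2 scale. Protein-coding genes with a mean value of 10 to 100 were higher in 578 and lower in 211 cases, whereas those at 1000 and over were higher in 2390 and lower in 3123. By exonic length, 21.1% of the shortest of 4 equal classes of protein-coding genes were higher and 35.7% lower, and in the longest class 35.9% were higher and 26.7% lower. By chromosome the share of protein-coding genes called higher lay between 23.4% for chromosome 20 and 35.1% for chromosome 15.

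**Figure D1:**
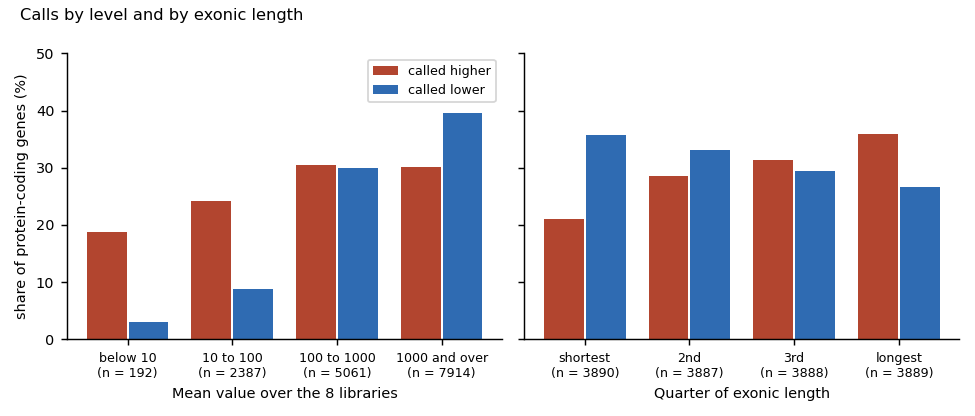
Share of nuclear protein-coding genes called higher (red) or lower (blue) in excess than in complete medium by limma at an adjusted p of 0.01 or less, by mean value over the 8 libraries (left) and by 4 classes of exonic length (right). The bars show more increases than decreases among genes of low level and among long genes, and more decreases than increases among genes of 1000 and over and among short genes.

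The 12 largest increases and 12 largest decreases were taken among called protein-coding genes whose higher group averaged at least 100 and whose groups did not overlap, so that the absence of overlap in these genes is a matter of the choice. KLHDC7B (ENSG00000130487, GRCh38 chr22:50545899-50551023), a kelch-domain gene, had values of 18.9, 9.88, 20.3 and 35.1 in complete medium and 1112, 1156, 1095 and 1211 in excess. Its log2 fold change of 5.82 ± 0.24 (SE, n = 4 per group, limma adjusted p = 4.26e-12) was the largest of this set. GDF15 (ENSG00000130513, chr19:18374731-18389176), a secreted stress hormone of the TGF-beta superfamily, rose from 25.2, 46.9, 28.4 and 43.9 to 1324, 1425, 1448 and 1472, which is 39.3-fold in the means (log2 5.30 ± 0.16, limma adjusted p = 9.03e-14). Both genes were low in every complete library and far above that in every excess library.

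HNF4A (chr20:44355699-44432845), a nuclear receptor of liver and kidney epithelium, was at 0 in complete replicates 2 and 3 and at most 6.58 in the other complete libraries, and had values of 93.1, 104, 107 and 126 in excess medium (log2 5.43 ± 0.55, limma adjusted p = 2.73e-07), and its fold depends on the pseudocount since 2 complete libraries were at 0. Among the other proximal tubule and liver markers kept, the cubilin gene CUBN rose by 1.07, the megalin gene LRP2 fell by 0.97 and the albumin gene ALB was at -0.79 without a call, and APOB was at 0 in every library of both groups. FGF21, a secreted metabolic hormone, had at most 26.3 in complete and 300 to 388 in excess medium (log2 4.74), and DSC1, a desmosomal cadherin whose exons overlap an antisense RNA, at 2.03 to 9.88 and 177 to 217 (log2 5.11). Further increases were those of TNFRSF9, a T-cell costimulatory receptor of the tumour necrosis factor receptor family, APOL6, FUT1, which encodes a fucosyltransferase, S100P, TCTE1 and GDAP1L1, with log2 fold changes of 3.84 to 4.23. FUT1 and GDAP1L1 were high in cysteine-free medium too, GDAP1L1 at 260 and 270 against 313 to 360 in excess.

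The largest decreases were those of the inducible HSP70 genes. HSPA1A (ENSG00000204389, chr6:31815543-31817946) had values of 87977, 87495, 52287 and 112705 in complete medium and 6453, 5629, 6455 and 6823 in excess, and HSPA1B (chr6:31827738-31830254) 117785, 116327, 69915 and 148570 against 8519, 7570, 8516 and 8940. The excess means were 7.45% and 7.41% of the complete means, with log2 fold changes of -3.70 ± 0.15 and -3.71 ± 0.15 (limma adjusted p = 3.44e-12 and 2.55e-12). The 2 genes are near-identical copies, so that the split of reads between them is uncertain, and the complete libraries themselves spread more than 2-fold. SNHG32, a small nucleolar RNA host gene that starts at chr6:31834608 beside HSPA1B, showed the same ranking of the complete libraries (58448, 57199, 34414 and 72645) and fell to 7585 to 8397.

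Further down came SLC22A31 (log2 -3.09), the metallothionein MT1X (-2.52), LRRC20 and FUOM (both -2.36), LRRC3 (-2.32), the zinc importer SLC39A4 (-2.31), CILP2 (-2.29), the helicase PIF1 (-2.26), HBQ1 and IRS4 (both -2.17). IRS4 (ENSG00000133124, chrX:108719946-108736563), an insulin receptor substrate abundant in this line, was at 52882, 55233, 64735 and 49827 in complete medium and 13023, 12630, 12942 and 10833 in excess (limma adjusted p = 1.66e-13), so that all excess libraries lay far below all complete ones. In cysteine-free medium IRS4 was at 61731 and 60816.

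**Figure D2:**
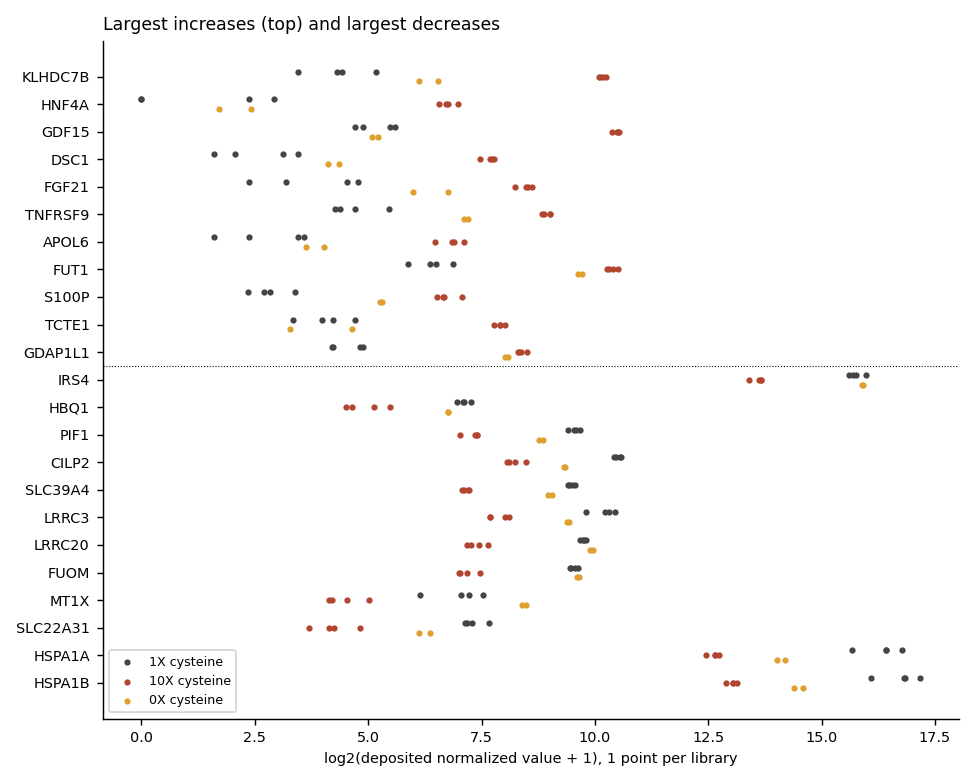
Normalised values, as log2(value + 1), of 11 of the 12 largest increases (above the dotted line) and of the 12 largest decreases among protein-coding genes, with 1 point for each library in 1X (grey), 10X (red) and 0X (orange) cysteine. Genes were chosen for groups 1X and 10X that do not overlap, and the orange points lie near the grey ones for GDF15 and IRS4 but near the red ones for GDAP1L1.

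Genes were then grouped into 46 functional lists, whose counts stand against 23.6% of all genes higher, 23.3% lower and a median of 0.02. Most lists hold protein-coding genes, and of the nuclear protein-coding genes 29.2% were higher and 31.2% lower. At a mean value of 1000 and over these shares were 30.2% and 39.5%. The figure of lists by function ranks them by their median, from the integrated stress response (1.36) at the top to the cytosolic heat shock chaperones (-0.93) at the bottom.

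**Figure D3:**
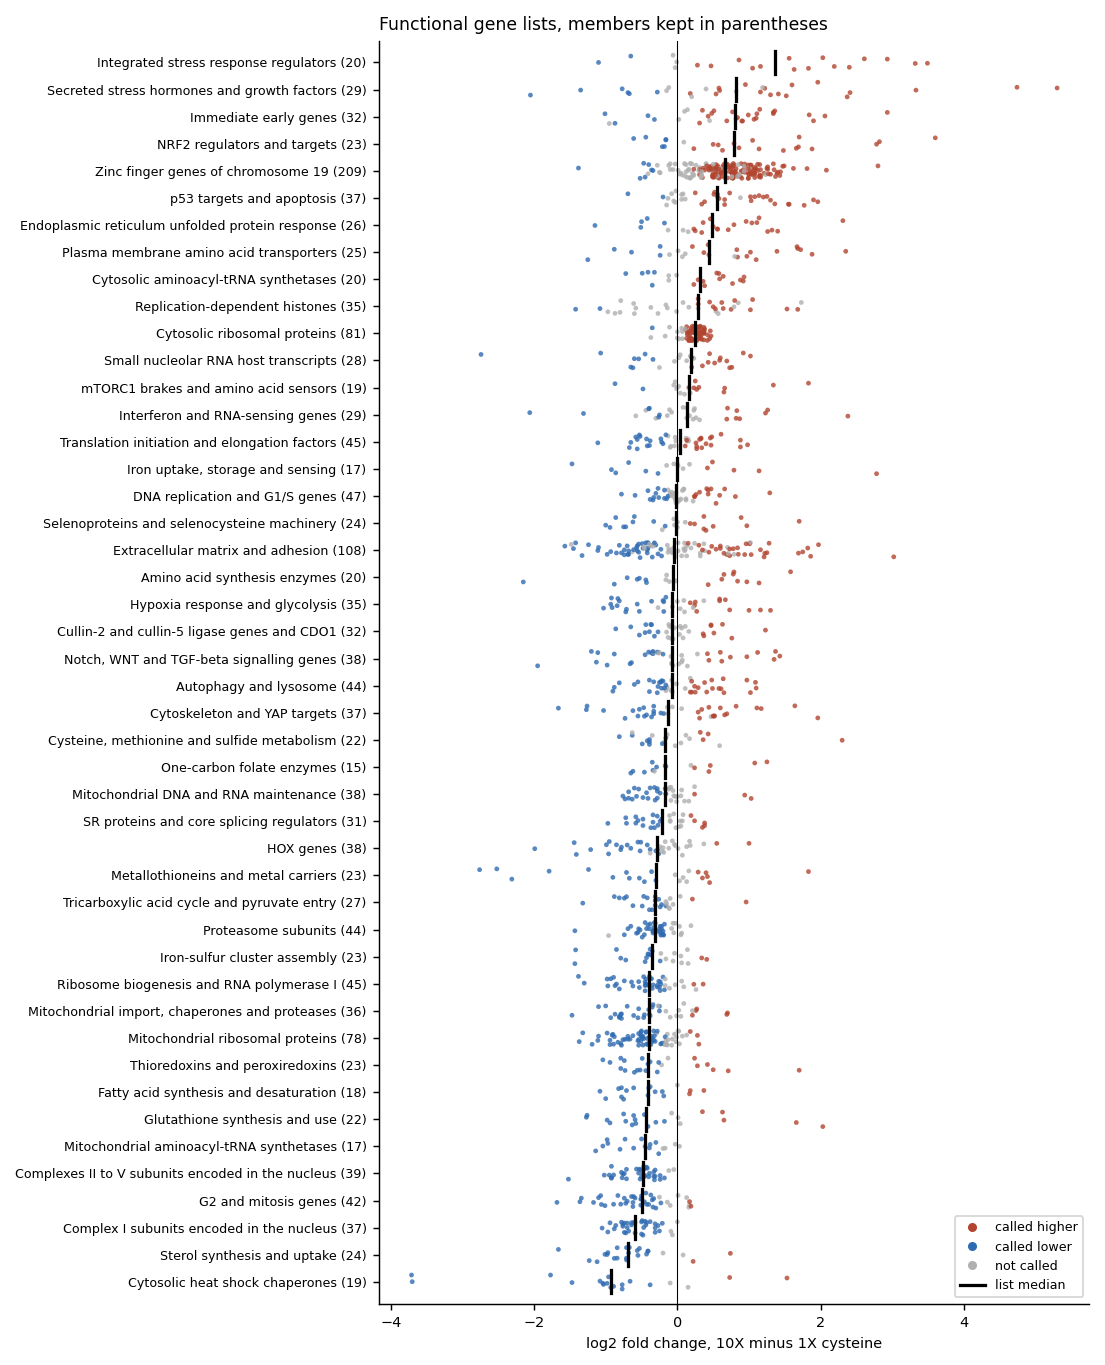
Log2 fold change, excess (10X) minus complete (1X) medium, of each kept member of the 46 functional lists, with 1 point per gene coloured by its call and a black tick at the list's median. Lists of stress regulators, secreted factors, immediate early genes and zinc finger genes lie to the right of 0, and lists of respiratory chain, sterol, mitosis and chaperone genes lie to the left.

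The integrated stress response list had 20 members kept, of which 15 rose and 2 fell (median 1.36). Its central factor ATF4, which is controlled mainly at translation, had values of 27993, 26243, 29547 and 26177 in complete and 37033, 38004, 39079 and 38057 in excess medium (log2 0.47 ± 0.039, limma adjusted p = 2.60e-08). The modest rise of ATF4 stood beside much larger ones of genes known as its targets. TRIB3 (ENSG00000101255, chr20:362835-397559), a pseudokinase that restrains ATF4, was at 1234, 1239, 1210 and 1363 in complete medium and 11983, 12473, 12682 and 13292 in excess, a 9.99-fold difference in the means (log2 3.32 ± 0.047, limma adjusted p = 2.78e-17). NUPR1, a small chromatin-associated stress protein whose exons overlap those of an unnamed lncRNA, rose from 82.8 to 97.5 in complete medium to 950 to 1133 in excess (log2 3.49). ATF3, a repressor of the ATF family, rose by 2.93, PPP1R15A, which encodes the eIF2 phosphatase subunit GADD34, by 2.61, CEBPB by 2.40 and DDIT3, which encodes the pro-apoptotic factor CHOP, by 2.19. DDIT3 values were 576 to 637 in complete and 2611 to 2881 in excess medium, without overlap.

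The eIF2 kinases did not move as 1 group. EIF2AK3, which encodes the endoplasmic reticulum kinase PERK, rose by 1.05 and EIF2AK2, the kinase of double-stranded RNA, by 0.28, whereas EIF2AK4, which encodes the amino acid sensor GCN2, fell by 0.65 from 2533 to 2754 to 1656 to 1775 (limma adjusted p = 4.26e-09). EIF2AK1, the heme-regulated kinase, had a log2 fold change of -0.06 and was not called. OMA1, the mitochondrial protease that cleaves DELE1 under mitochondrial stress, fell by 1.10, with values of 927 to 1102 in complete and 409 to 516 in excess medium, and DELE1 itself was at -0.01.

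Promoter windows of 250 bases before to 50 after the annotated gene start (RefSeq, GRCh38.p14) were searched for the C/EBP-ATF response element TGATGNAA on both strands, since it is the element through which ATF4 acts. It stood in 3.7% of all 27305 promoters in the reference and in 1.9% of the 12104 windows of kept nuclear protein-coding genes. In genes called at least 2-fold higher the share was 4.6% (34 of 739), and in those at least 2-fold lower 1.8% (7 of 393). It stood in 3 of 18 promoters of the integrated stress response list, 3 of 12 of amino acid synthesis, 4 of 18 of amino acid transporters and 6 of 16 of cytosolic aminoacyl-tRNA synthetases, and all 6 of the latter were called higher. The 3 called-higher holders with the largest increases in these lists were ATF3, CHAC1 and ASNS. Their windows are given 5′ to 3′ on the gene's strand, with the matching letters in capitals, to show where the element lies: ATF3 at chr1:212565157-212565456 (+), CHAC1 at chr15:40953221-40953520 (+) and ASNS at chr7:97872359-97872658 (-).
ATF3: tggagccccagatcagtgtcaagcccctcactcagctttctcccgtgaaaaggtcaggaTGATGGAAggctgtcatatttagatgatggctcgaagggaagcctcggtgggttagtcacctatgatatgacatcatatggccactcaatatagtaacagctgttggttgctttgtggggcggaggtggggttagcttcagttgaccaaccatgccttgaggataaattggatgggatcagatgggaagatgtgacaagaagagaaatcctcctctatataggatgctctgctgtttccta
CHAC1: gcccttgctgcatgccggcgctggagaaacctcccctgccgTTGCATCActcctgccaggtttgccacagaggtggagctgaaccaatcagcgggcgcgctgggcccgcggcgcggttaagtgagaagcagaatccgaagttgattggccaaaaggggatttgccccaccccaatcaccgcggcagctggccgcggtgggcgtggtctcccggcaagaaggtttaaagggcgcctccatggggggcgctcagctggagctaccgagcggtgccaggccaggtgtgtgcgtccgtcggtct
ASNS: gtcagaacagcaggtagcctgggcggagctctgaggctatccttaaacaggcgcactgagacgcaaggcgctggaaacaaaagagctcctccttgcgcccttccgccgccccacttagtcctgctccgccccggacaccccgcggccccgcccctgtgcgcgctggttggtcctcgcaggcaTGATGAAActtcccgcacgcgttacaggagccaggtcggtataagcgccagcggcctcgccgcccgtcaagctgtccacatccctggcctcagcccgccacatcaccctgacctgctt
A match says only that the letters are present, and no factor's binding was measured.

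Amino acid synthesis enzymes were split, 9 of 20 higher and 7 lower (median -0.06; 0.62 over members whose exons overlap no other gene). ASNS, asparagine synthetase, whose promoter is shown above, was at 7749, 7424, 7481 and 7372 in complete and 21925, 22748, 22727 and 22581 in excess medium, a 3.00-fold difference (log2 1.58 ± 0.033, limma adjusted p = 9.77e-16), and its exons overlap an unnamed lncRNA on the same strand, which rose by 1.54. The serine synthesis genes PHGDH, PSAT1 and PSPH rose by 0.62, 0.78 and 0.79, the mitochondrial serine hydroxymethyltransferase SHMT2 by 0.97 and the argininosuccinate synthase ASS1 by 1.14. By contrast PYCR3, the last step of 1 route of proline synthesis, fell by 2.15, from 1437 to 1721 in complete to 343 to 406 in excess medium, and ALDH18A1 and OAT, which supply its substrate, fell by 0.56 and 0.44. In folate metabolism, 5 of 15 members rose and 8 fell, or 5 and 4 with equal totals. The mitochondrial enzymes MTHFD2 and ALDH1L2 rose by 1.08 and 1.25, while the cytosolic MTHFD1 fell by 0.46.

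Plasma membrane amino acid transporters rose in 15 of 25 cases and fell in 5 (median 0.44). SLC7A11, the cystine-glutamate exchanger xCT, had values of 4482, 5130, 4257 and 4932 in complete and 16645, 18228, 16385 and 17708 in excess medium (log2 1.88 ± 0.054, limma adjusted p = 6.37e-14), so the transcript of the main cystine importer was higher where cysteine was in excess. Its partner SLC3A2 rose by 1.02. SLC1A4, a neutral amino acid exchanger of alanine, serine and cysteine, showed the largest rise of the list, from 1331 to 1459 to 7077 to 7341 (5.11-fold in the means, log2 2.35, limma adjusted p = 2.20e-16). The glycine transporter SLC6A9 and the cationic transporters SLC7A3 and SLC7A7 rose by 1.67, 1.72 and 1.68. The glutamate and cysteine transporter SLC1A1 fell by 1.25, with 237 to 279 in complete and 82.6 to 120 in excess medium. The renal cystine transporter pair SLC3A1 and SLC7A9 rose by 0.43 and 1.39, the latter with a highest value of 21.7 in any library of either group.

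Cytosolic and mitochondrial aminoacyl-tRNA synthetases, which charge tRNAs for the 2 translation systems of the cell, parted. Of 20 cytosolic members 12 rose and 5 fell (median 0.32), and of 17 mitochondrial members none rose and 13 fell (median -0.45). CARS1, the cytosolic cysteinyl-tRNA synthetase, had values of 3388, 3088, 3139 and 3299 in complete and 5915, 6118, 6006 and 6362 in excess medium (log2 0.92), while its mitochondrial counterpart CARS2 fell from 1875, 1893, 1950 and 1928 to 1165, 1075, 1253 and 1127 (log2 -0.73, limma adjusted p = 6.27e-09). WARS1 rose by 0.93 and GARS1, which serves both compartments, by 0.88. VARS1 fell by 0.72. LARS2 and EARS2 led the mitochondrial decreases at -1.14 and -1.04, the latter sharing exon bases with neighbouring genes.

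In the list of brakes and amino acid sensors of the growth kinase complex mTORC1, 9 of 19 genes rose and 2 fell (median 0.16). SESN2, a leucine sensor induced by ATF4, was at 5588, 5056, 5674 and 5254 in complete and 18378, 19200, 19338 and 19915 in excess medium (log2 1.83, limma adjusted p = 3.18e-15). DDIT4, which encodes REDD1, rose by 1.34 and SESN1 by 0.66. The arginine sensor CASTOR1 was lower by 0.87 at values of 133 to 160 in complete and 52.9 to 116 in excess medium, with exons that overlap an unnamed gene of higher values on the same strand, and RRAGA, a Rag GTPase that activates mTORC1, fell by 0.48.

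The unfolded protein response of the endoplasmic reticulum rose in 18 of 26 members and fell in 5 (median 0.48). HSPA5, which encodes the chaperone BiP, was at 28725, 29033, 29007 and 28629 in complete and 45079, 48639, 47898 and 47838 in excess medium (log2 0.71 ± 0.032, limma adjusted p = 1.22e-11). The largest rise was that of DNAJB9, a BiP co-chaperone, from 479 to 589 to 2439 to 2670 (log2 2.31). XBP1, the factor spliced by the sensor IRE1, rose by 1.40, the sensor genes ERN1 and ATF6 by 1.26 and 1.04, and the degradation genes HERPUD1, EDEM1 and SEL1L by 1.32, 1.11 and 0.96. Of the luminal folding genes, SDF2L1 had a log2 fold change of -1.15, CRELD2 of -0.51, CALR of -0.50, PDIA6 of -0.42 and HSP90B1 of -0.18, and all 5 were called lower.

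Cytosolic heat shock chaperones fell in 15 of 19 cases and rose in 2 (median -0.93). Beside HSPA1A and HSPA1B, the constitutive HSP70 gene HSPA8 fell from 80096, 77731, 69061 and 78253 to 22319, 22326, 22120 and 22799 (log2 -1.77, limma adjusted p = 3.23e-15), and HSP90AB1 from 69882 to 79991 to 34865 to 36834 (log2 -1.04). HSP90AA1, HSPH1, DNAJB1 and STIP1 fell by 0.96, 1.08, 1.03 and 0.98. HSPB8 and DNAJB4 were the 2 that rose, by 1.53 and 0.73. The heat shock transcription factor HSF1 had a log2 fold change of 0.15 and was not called. In cysteine-free medium HSPA1A was at 18693 and 16477, also below complete medium. The list's median against complete medium was -0.68 there, so lower chaperone transcripts were not particular to excess cysteine.

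The NRF2 list held 23 kept members, of which 16 rose and 6 fell (median 0.79). OSGIN1 (chr16:83931311-83966332), an oxidative stress-induced growth inhibitor, rose from 41.0, 32.1, 40.6 and 31.8 to 428, 432, 453 and 480 (log2 3.60 ± 0.13, limma adjusted p = 6.62e-13), and its exons overlap MLYCD, which was at -0.09. HMOX1, heme oxygenase, was at 352 to 430 in complete and 2433 to 2880 in excess medium (log2 2.78, limma adjusted p = 2.35e-14). TXNRD1, the cytosolic thioredoxin reductase, rose by 1.70, GCLM by 1.66, the quinone reductase NQO1 by 1.48, the aldo-keto reductase AKR1B10 by 2.82, the NRF2 partner MAFG by 1.69 and the ferritin genes FTL and FTH1 by 1.14 and 0.79. None of these overlapped between the groups, which held for 21 of the 23 members and for 52.4% of all genes. The transcript of NRF2 itself, NFE2L2, fell by 0.21, from 17337 to 19146 to 15371 to 16052, and KEAP1 rose by 0.23. The pentose phosphate genes of the list did not rise with the others: TALDO1 fell by 0.61 and PGD by 0.16, and TKT had a value of 0.09 without a call.

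The antioxidant response element TGACNNNGC, searched on both strands in the same windows, stood in 13.6% of all promoters and in 14.6% of those of kept nuclear protein-coding genes. The share was 13.1% among genes at least 2-fold higher and 13.7% among those at least 2-fold lower, and 4 of 17 promoters of the NRF2 list held it, 3 of them of genes called higher. Those 3, of TXNRD1 (chr12:104215529-104215828, +), GCLM (chr1:93909381-93909680, -) and ME1 (chr6:83431002-83431301, -), are given with the matching letters in capitals.
TXNRD1: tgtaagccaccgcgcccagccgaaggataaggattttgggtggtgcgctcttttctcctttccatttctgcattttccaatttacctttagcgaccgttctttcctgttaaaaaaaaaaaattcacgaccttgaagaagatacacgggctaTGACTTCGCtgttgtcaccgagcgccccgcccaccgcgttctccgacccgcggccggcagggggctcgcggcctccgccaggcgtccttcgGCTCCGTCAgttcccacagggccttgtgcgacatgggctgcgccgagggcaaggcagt
GCLM: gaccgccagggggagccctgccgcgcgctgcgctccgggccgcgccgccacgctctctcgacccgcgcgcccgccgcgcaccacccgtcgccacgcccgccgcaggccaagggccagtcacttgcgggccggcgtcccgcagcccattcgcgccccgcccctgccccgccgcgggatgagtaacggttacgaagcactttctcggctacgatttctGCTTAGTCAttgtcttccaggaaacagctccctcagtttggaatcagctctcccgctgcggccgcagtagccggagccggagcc
ME1: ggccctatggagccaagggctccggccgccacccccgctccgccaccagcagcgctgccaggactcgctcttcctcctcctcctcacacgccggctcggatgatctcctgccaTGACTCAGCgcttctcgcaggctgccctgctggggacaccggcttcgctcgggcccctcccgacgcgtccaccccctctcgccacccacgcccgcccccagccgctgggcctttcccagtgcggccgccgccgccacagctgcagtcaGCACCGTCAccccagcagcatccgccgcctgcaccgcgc
TXNRD1 and ME1 hold 2 matches each and GCLM 1, and elements further from the gene start lie outside these windows.

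**Figure D4:**
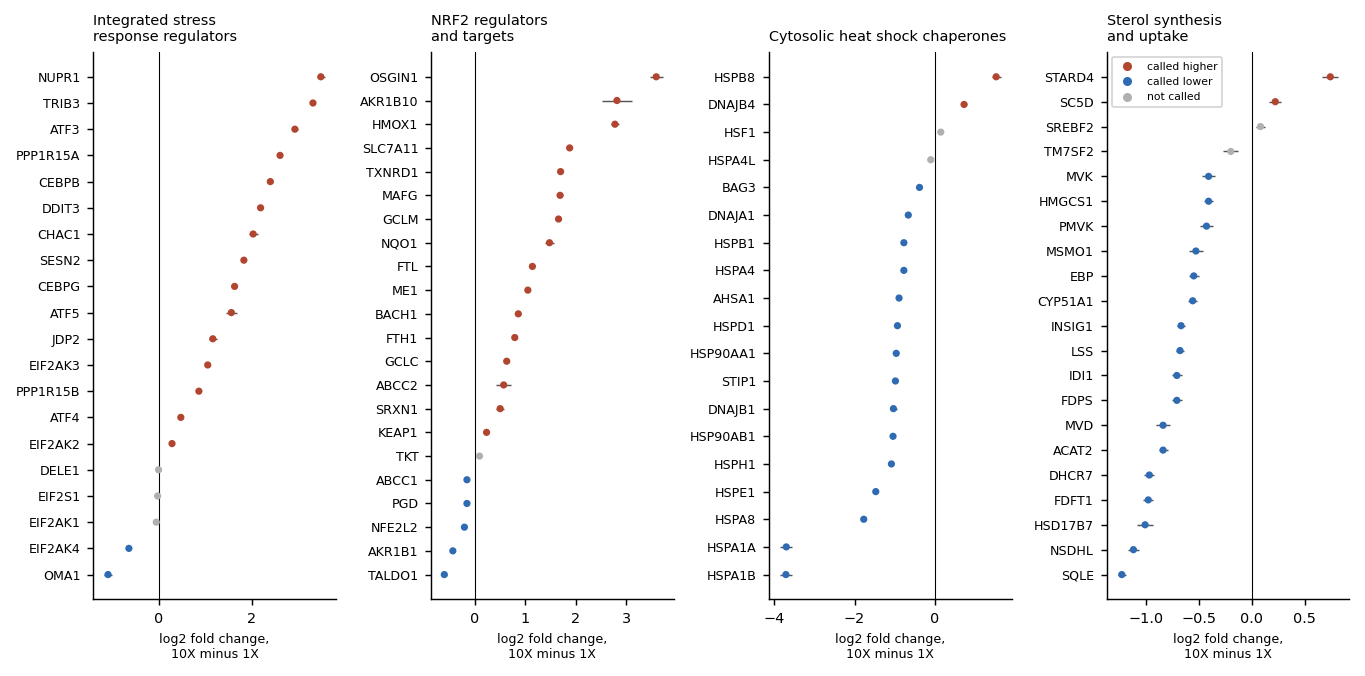
Log2 fold change with its standard error (horizontal line), excess (10X) minus complete (1X) medium, for kept members of 4 lists, coloured by call. The stress response and NRF2 panels lie mostly to the right of 0, up to 3.49 for NUPR1 and 3.60 for OSGIN1, and the chaperone and sterol panels mostly to the left, down to -3.71 for HSPA1B and -1.23 for SQLE.

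Glutathione genes were lower in 14 of 22 cases and higher in 5 (median -0.44). The 2 subunits of glutamate-cysteine ligase, the rate-limiting enzyme of glutathione synthesis, both rose, the modifier GCLM from 1681, 1542, 1463 and 1470 to 4745, 4912, 4679 and 5118 and the catalytic GCLC from 2306, 2215, 2220 and 2218 to 3572, 3458, 3282 and 3511 (log2 1.66 and 0.63, limma adjusted p = 1.39e-13 and 2.69e-09). CHAC1, which degrades glutathione and is an ATF4 target, was at 359 to 523 in complete and 1780 to 2069 in excess medium (log2 2.03). Glutathione synthetase GSS, however, fell by 0.61, the peroxidases GPX1 and GPX4 by 0.94 and 0.75, the transferases GSTM2 and GSTM4 by 1.27 and 1.26 and GSTP1 by 0.46. GPX1 shares exon bases on its strand with an unnamed protein-coding gene of higher values (means 9430 in complete and 7140 in excess medium), which was at -0.40.

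Thioredoxins, peroxiredoxins and related enzymes were also lower for the most part, with 6 of 23 higher and 15 lower (median -0.41). TXN, thioredoxin, fell from 9999, 9403, 9342 and 9153 to 4980, 5080, 4761 and 4965 (log2 -0.94 ± 0.039, limma adjusted p = 5.69e-12), while its reductase TXNRD1 rose from 5668 to 6622 to 19757 to 20605. All 6 peroxiredoxins fell, PRDX3 and PRDX1 the most at -0.79 and -0.73, as did catalase CAT (-1.04) and superoxide dismutase SOD1 (-0.74). Sulfiredoxin SRXN1 rose by 0.50 and glutaredoxin GLRX by 0.42.

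Of the genes of cysteine, methionine and sulfide metabolism, 4 of 22 rose and 9 fell (median -0.17), against 7 higher and 5 lower with equal totals (median -0.06), so the balance of directions depended on the scaling. CTH (ENSG00000116761, chr1:70411218-70439851), cystathionine gamma-lyase, which makes cysteine in the last step of transsulfuration and is also able to release sulfide, was at 1686, 1516, 1428 and 1748 in complete and 7602, 8146, 7865 and 7741 in excess medium, 4.92-fold in the means (log2 2.30 ± 0.057, limma adjusted p = 8.19e-15). The preceding enzyme CBS had a log2 fold change of 0.05 and was not called. CDO1, cysteine dioxygenase, which commits cysteine to taurine and sulfate, rose by 0.36 ± 0.093 (limma adjusted p = 0.00330), from 267, 271, 295 and 236 to 336, 310, 361 and 362. This rise was small beside that of CTH, and its call was lost without excess replicate 3 or excess replicate 4 (log2 0.33 in both cases). The downstream sulfite oxidase SUOX and persulfide dioxygenase ETHE1 fell by 0.63 and 0.39, and the sulfide oxidase SQOR had a value of 0.59 without a call. In polyamine synthesis, SRM fell by 0.81 and SMS by 0.39.

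The selenoprotein list was balanced, 9 of 24 higher and 9 lower (median -0.02; 0.08 with equal totals). TXNRD1, SELENOK and SEPSECS rose by 1.70, 0.97 and 0.89. GPX4, the lipid peroxidase that guards against ferroptosis, fell from 6882 to 7286 to 4038 to 4396 (log2 -0.75), and MSRB1 and SELENOH by 1.00 and 0.86.

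The 3 metallothioneins kept, which encode cysteine-rich metal binding proteins, all fell. MT2A was at 158, 109, 197 and 119 in complete and 44.9, 34.8, 51.2 and 32.3 in excess medium (log2 -1.79, limma adjusted p = 1.03e-06), MT1X at 70.2 to 185 and 16.7 to 31.6, and MT1F at 23.1 to 39.5 and 1.28 to 5.12. In cysteine-free medium, in contrast, MT2A was at 410 and 301, above all complete libraries. Of the metal carriers, the zinc importer SLC39A4 fell from 676 to 755 to 133 to 149, SLC39A10 by 0.90 and the copper chaperone ATOX1 by 1.24. The manganese exporter SLC30A10 rose from 114 to 137 to 429 to 490 (log2 1.83). The metal-sensing factor MTF1 had a value of 0.03. Over the whole list of 23, 6 rose and 12 fell.

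In iron handling, 5 of 17 genes rose and 6 fell (29.4% and 35.3%, against 29.2% and 31.2% of nuclear protein-coding genes). The transferrin receptor TFRC fell from 13983 to 15277 to 8775 to 9401 (log2 -0.68) and the endosomal reductase STEAP3 by 1.47, and ferritin light chain FTL rose from 8946 to 10202 to 19793 to 21424. Iron-sulfur cluster assembly was lower in 13 of 23 cases and higher in 2 (median -0.35). NFS1, the desulfurase that takes sulfur from cysteine for cluster synthesis, was at 1588, 1602, 1474 and 1658 in complete and 628, 600, 546 and 586 in excess medium (log2 -1.42 ± 0.061, limma adjusted p = 8.05e-12). Its exons overlap ROMO1 on the other strand, which was at -0.74, and an unnamed protein-coding gene on the same strand, which was at -0.28. BOLA3 and ISCA2 fell by 1.43 and 0.85, while the scaffold gene ISCU was at 0.14 without a call.

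Nuclear genes of oxidative phosphorylation fell almost throughout. Of 37 nuclear complex I subunits 34 fell and none rose (median -0.59), and of 39 genes of complexes II to V 37 fell and none rose (median -0.48). Of all genes kept 23.3% fell, and of nuclear protein-coding genes 31.2%, or 39.5% at a mean value of 1000 and over. ATP5MC1, which encodes the c ring subunit of ATP synthase, fell from 4167, 4199, 3692 and 3877 to 1328, 1417, 1450 and 1358 (log2 -1.52 ± 0.052, limma adjusted p = 4.65e-13). NDUFB3 and NDUFB10 fell by 1.05 and 0.97, UQCR10 by 0.92 and SDHC by 0.76. NDUFS1, NDUFS7, NDUFV3, COX4I1 and COX6A1 were the 5 members not called, at -0.12 and above. The largest of these changes, that of ATP5MC1, lay outside the range of -3.14 to -7.79 of the genes of mitochondrial DNA.

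Mitochondrial ribosomal protein genes fell in 55 of 78 cases and rose in 3 (median -0.40). MRPL12 fell from 4497 to 5832 to 1881 to 1976 (log2 -1.37), with MRPS28 at -1.32 and MRPL24 at -1.19, whereas MRPL10 rose by 0.30. MRPL12 and MRPS28 each share exon bases on their strand with an unnamed protein-coding gene, at -1.30 and -0.71. Of 38 genes that copy, transcribe or process mitochondrial DNA and RNA, 20 fell and 3 rose (median -0.17). TFAM, which packages the genome, was at 5119 to 6109 in complete and 5381 to 5729 in excess medium (log2 -0.06, limma adjusted p = 0.338), with overlapping groups. The polymerase POLRMT and its cofactor TFB2M fell by 0.54 and 0.48 and the RNA stability factor SLIRP by 0.68, while LRPPRC was at -0.09. RRM2B and TK2, which supply deoxynucleotides, rose by 1.03 and 0.94, RRM2B from 1395 to 2039 to 3491 to 3681.

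Mitochondrial import, chaperone and protease genes fell in 23 of 36 cases and rose in 5 (median -0.39). The chaperonin pair HSPD1 and HSPE1, which share exon bases, fell by 0.93 and 1.47, and TIMM13 and TOMM40 by 1.00 and 0.81. LONP1, the matrix protease, rose by 0.26, and HSPA9, the matrix HSP70, was at 0.05. Tricarboxylic acid cycle genes fell in 18 of 27 cases and rose in 2 (median -0.31). SUCLG2 fell from 1649 to 1854 to 634 to 832 (log2 -1.32) and OGDH by 0.88, while the citrate synthase gene CS was at -0.10 without a call. PCK2, the mitochondrial phosphoenolpyruvate carboxykinase and an ATF4 target, rose by 0.96. In the hypoxia and glycolysis list (11 of 35 higher and 16 lower, or 15 and 12 with equal totals, median -0.07), the rises included VEGFA (1.30), SLC2A3 (1.16) and ENO2 (1.00), and the falls included LDHA (-1.03), PFKL (-0.93), PGAM1 (-0.91) and TPI1 (-0.84).

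**Figure D5:**
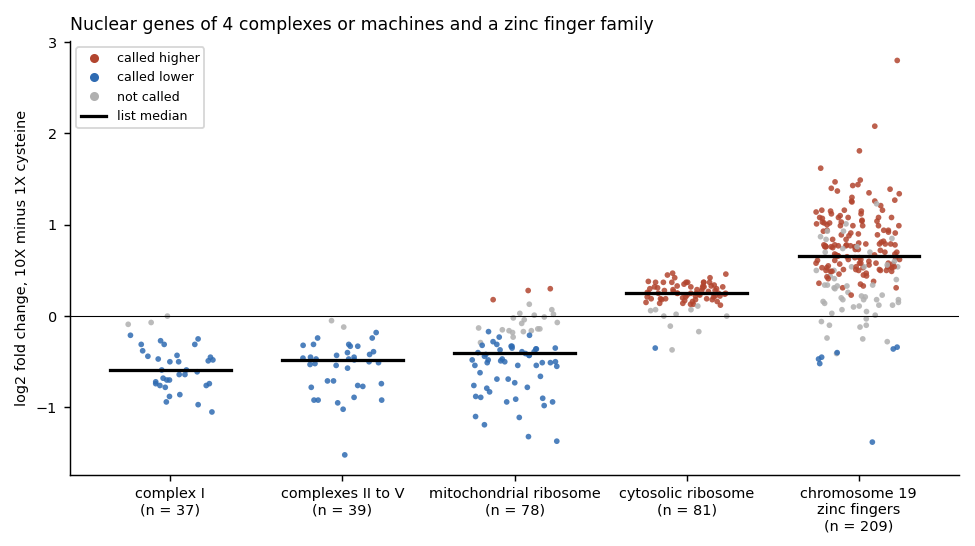
Log2 fold change, excess (10X) minus complete (1X) medium, of each kept nuclear gene of the respiratory complexes, the mitochondrial and cytosolic ribosomes and the zinc finger family of chromosome 19, with 1 point per gene coloured by call and a bar at the median. Respiratory and mitochondrial ribosomal genes lie below 0 (medians -0.59, -0.48 and -0.40), cytosolic ribosomal genes lie in a narrow band above it (0.25), and zinc finger genes spread widely above it (0.66).

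Sterol synthesis genes, which the factor SREBP2 activates when membrane cholesterol is low, fell in 20 of 24 cases and rose in 2 (median -0.69). SQLE, the squalene epoxidase gene, was at 6162, 6329, 6101 and 5989 in complete and 2584, 2634, 2579 and 2661 in excess medium (log2 -1.23 ± 0.039, limma adjusted p = 1.52e-13), so that all excess libraries lay below all complete ones. NSDHL and HSD17B7, which encode later enzymes of the pathway, fell by 1.12 and 1.01. INSIG1, which is controlled by the same factor, fell by 0.67. The transcript of SREBP2 itself, SREBF2, was at 0.08 and not called, and STARD4, a sterol carrier, rose by 0.74. Fatty acid genes followed, with 14 of 18 lower and 3 higher (median -0.41). FASN, fatty acid synthase, fell from 40791 to 42996 to 19104 to 21163 (log2 -1.08), and ELOVL6, SCD and ACACA by 1.00, 0.82 and 0.78.

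Cytosolic ribosomal protein genes rose in 70 of 81 cases and fell in 1 (median 0.25), in a narrow range. RPS27 rose from 19374 to 21130 to 26923 to 28735 (log2 0.47) and RPS19 by 0.46. RPS26 was the exception, with 7800, 7491, 7912 and 7578 in complete and 5947, 6067, 5972 and 6141 in excess medium (log2 -0.35, limma adjusted p = 3.03e-07). The median of this list was between 0.25 and 0.46 under the 4 scalings tried. Ribosome biogenesis genes moved the other way, 36 of 45 lower and 2 higher (median -0.39). NCL, nucleolin, fell from 61306 to 67043 to 34836 to 36567 (log2 -0.85), MYC by 0.87, and the RNA polymerase I subunits POLR1G, POLR1A and POLR1B by 1.38, 0.64 and 0.53. The exons of POLR1G overlap ERCC1 on the other strand, which was at -0.98.

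Of the translation factors, 17 of 45 were higher and 16 lower, or 22 and 12 with equal totals. EEF2 and EIF1 rose by 0.88 and 0.98, EEF1A1 and PABPC1 by 0.33 and 0.48, and EIF4EBP1, the repressor of cap binding and an ATF4 target, by 0.88. EEF2 was at 123602 to 131689 in complete and 226351 to 249861 in excess medium. EIF5A fell from 27358 to 30275 to 12672 to 13973 (log2 -1.11), EIF4G1 by 0.67 and EIF4E by 0.56. Proteasome genes fell in 35 of 44 cases and none rose (median -0.31), among them PSMA7 (-0.74), PSMD1 (-0.69) and the immune subunit PSMB10 (-1.43). PSMB10 shares exon bases on its strand with an unnamed protein-coding gene of higher values, which was at -1.33.

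The study concerns LRRC58, a substrate receptor of cullin-2 and cullin-5 ubiquitin ligases, and CDO1, so their list was examined too. LRRC58 was at 5392, 5412, 5120 and 4924 in complete and 5182, 5395, 5157 and 5520 in excess medium (log2 0.03 ± 0.043, limma adjusted p = 0.592), and the groups overlapped. Of 32 members kept, 8 rose and 10 fell (25.0% and 31.2%), or 13 and 10 with equal totals. The shares were 23.6% and 23.3% over all genes and 29.2% and 31.2% over nuclear protein-coding genes. FEM1B, a receptor that takes part in reductive stress sensing, rose from 3812, 3174, 4500 and 2600 to 7684, 8391, 7843 and 8520 (log2 1.23), and VHL by 0.76. The shared subunits RBX1 and ELOB and the modifier NEDD8 fell by 0.65, 0.53 and 0.86, and CUL2 by 0.32, while CUL5 was at -0.12 without a call.

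Of the autophagy and lysosome genes, 18 of 44 were higher and 17 lower, or 19 and 10 with equal totals. The increases included SQSTM1 from 4368 to 4609 to 9176 to 9825 (log2 1.10), GABARAPL1 (1.09), WIPI1 (1.02), OPTN (0.97) and ULK1 (0.65). The decreases included CTSA (-0.88), LAMP1 (-0.81) and TPP1 (-0.60). SQSTM1, GABARAPL1, WIPI1, OPTN, CTSA and TPP1 share exon bases with other genes.

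Among cell cycle genes, genes of G2 and mitosis fell in 33 of 42 cases and rose in 2 (median -0.50). CCNB1, cyclin B1, was at 7392, 6825, 6810 and 6746 in complete and 2736, 2623, 2868 and 2720 in excess medium (log2 -1.34 ± 0.044, limma adjusted p = 2.43e-13), and KIF20A, PLK1 and AURKA fell by 1.68, 1.07 and 1.01. KIF20A shares exon bases with CDC23 and BRD8 on the other strand, which were at -0.06 and 0.16. CENPE was lower at 692 to 1646 against 2897 to 3707, with the 692 of excess replicate 3 well below the other excess libraries. CDK1 and FOXM1 were at 0.17 and 0.01 and not called. Of the genes of DNA replication and the G1/S step, 13 of 47 were higher and 13 lower (median -0.02). That is 27.7% each, against 23.6% and 23.3% of all genes and 29.2% and 31.2% of nuclear protein-coding genes. The counts were 20 higher and 8 lower with equal totals and 18 and 10 with quantile normalization. E2F2 rose by 1.29, CDT1 by 0.81 and CCNE2 by 0.66, CCNE1 fell by 0.59 and GINS4 by 0.78, and PCNA and MCM2 were at 0.12 and -0.06 without a call. Of 35 replication-dependent histone genes kept of 66, which are poorly captured by poly(A) selection, 13 rose and 2 fell.

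p53 targets and apoptosis genes rose in 24 of 37 cases and fell in 2 (median 0.56). The list is named for known targets, and whether p53 acted on them in this line, which carries the SV40 large T antigen, was not tested. CDKN1A, which encodes the cell cycle inhibitor p21, was at 2327, 2021, 1886 and 2561 in complete and 8373, 8283, 8645 and 8660 in excess medium (log2 1.96 ± 0.071, limma adjusted p = 1.03e-12). GADD45A rose by 1.90, TP53INP1 by 1.77, the death receptor TNFRSF10B by 1.56, PHLDA3 by 1.55, ZMAT3 by 1.36, BBC3, which encodes PUMA, by 1.25, and MDM2 from 5578 to 6912 to 13626 to 14180. The apoptosis genes BAX, BID and BCL2L11 were at -0.03, -0.05 and -0.08 without a call. CASP9 fell by 0.69.

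Immediate early genes, which respond within minutes to growth factors and stress, rose in 23 of 32 cases and fell in 4 (median 0.80). FOS, the best known of them, was at 141, 124, 139 and 80.1 in complete and 182, 149, 127 and 198 in excess medium (log2 0.45, limma adjusted p = 0.0402) and was not called. FOSL2 rose from 162 to 238 to 803 to 908 (log2 2.06), KLF4 from 175 to 232 to 751 to 842 (1.90), FOSL1 and ZFP36 both by 1.34 and JUND by 1.10. EGR1 fell from 425 to 591 to 213 to 311 (log2 -1.01) and was at 1210 and 1310 in cysteine-free medium.

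Secreted stress hormones and growth factors rose in 17 of 29 cases and fell in 6 (median 0.82). Beside GDF15 and FGF21, INHBE, a hepatic activin subunit, rose from 125, 133, 127 and 188 to 1356, 1420, 1436 and 1488 (log2 3.33, limma adjusted p = 2.29e-13), the cytokine LIF from 92.4 to 159 to 582 to 674 (2.37), ADM2 by 1.96 and PDGFB by 1.60. IGFBP5 fell from 799 to 853 to 180 to 223 (log2 -2.05) and BMP2 from 94.4 to 262 to 52.9 to 59.5. Of the interferon and RNA-sensing genes, 8 of 29 were higher and 6 lower (27.6% and 20.7%), or 11 and 3 with equal totals (median 0.13, or 0.24 with equal totals). The shares were 23.6% and 23.3% over all genes and 29.2% and 31.2% over nuclear protein-coding genes. IFIT1 fell from 161 to 245 to 42.4 to 55.5 (log2 -2.06) and IFIT2 by 1.31, while IFI27, TNFAIP3, IRF1 and ISG15 rose by 1.26, 1.23, 0.82 and 0.83.

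The zinc finger genes of chromosome 19, a family of mostly KRAB-type repressors in clusters, were the largest list that moved one way: 144 of 209 kept rose and 7 fell (median 0.66). The shares were 23.6% and 23.3% over all genes and 29.2% and 31.2% over nuclear protein-coding genes. ZNF460 rose from 179, 198, 195 and 194 to 707, 688, 634 and 664 (log2 1.81, limma adjusted p = 6.92e-12), ZNF568 from 105 to 138 to 493 to 532 (2.08) and ZNF331 from 9.88 to 15.4 to 78.2 to 114 (2.80). ZNF784 was the main exception, with 233 to 337 in complete and at most 126 in excess medium. Of the other 952 protein-coding genes kept on the same chromosome 22.3% were higher and 39.1% lower (median -0.11), and of 280 zinc finger genes by name on other chromosomes 159 rose and 26 fell (median 0.37). The list held 132 genes that share exon bases with others, and over the rest the median was 0.58.

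HOX genes, which hold positional identity, fell in 20 of 38 cases and rose in 2 (median -0.28), led by HOXA13, from 655 to 828 to 177 to 215 (log2 -1.99), and HOXA2 (-1.44). SR proteins and splicing regulators fell in 16 of 31 cases and rose in 5 (median -0.22). SRSF2, HNRNPA2B1 and HNRNPH1 fell by 0.97, 0.72 and 0.71, whereas the kinases CLK1 and CLK4 both rose by 0.38. Of 28 small nucleolar RNA host transcripts 13 rose and 8 fell (median 0.19). ZFAS1 and GAS5, which carry a terminal oligopyrimidine start like ribosomal protein genes and are degraded when translated, rose by 1.02 and 0.60. SNHG4 had a log2 fold change of -1.07 and SNHG32, whose values are given above, of -2.74. Nearly all members, 27 of 28, share exon bases with another gene.

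In the cytoskeleton and YAP target list (15 of 37 higher and 17 lower), the targets and the structural genes are given apart. Among YAP targets, CCN2 rose from 98.5 to 150 in complete to 263 to 306 in excess medium (log2 1.11), AJUBA by 1.64, AMOTL2 by 1.17 and CCN1 by 0.82. Of 8 tubulin genes 6 fell, TUBB from 57828, 51979, 54818 and 50675 to 16405, 16751, 17762 and 17248 (log2 -1.66 ± 0.041, limma adjusted p = 8.71e-15), TUBB4B by 1.27, TUBA1B by 1.26 and TUBA1A by 1.03, while the neuronal TUBB3 and TUBB6 were at 0.06 and -0.14 without a call. ACTB fell by 0.73.

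Of the extracellular matrix and adhesion genes, 31 of 108 were higher and 39 lower (28.7% and 36.1%, median -0.05). With equal totals 33 were higher and 33 lower (median 0.05). Over all genes 23.6% were higher and 23.3% lower, and over nuclear protein-coding genes 29.2% and 31.2%. Fibronectin FN1 rose from 2048 to 2254 to 4073 to 4533 (log2 1.01) and LAMB3 from 81.5 to 128 to 331 to 462, and COL5A1 fell from 1375 to 1557 to 520 to 563 (log2 -1.42) and TNC by 1.45. The fibroblast markers given above, 2 of 4 kept of which fell, overlap this list through the collagens COL1A1 and COL3A1, and their part in it was not tested. In the Notch, WNT and TGF-beta list, 10 of 38 rose and 15 fell (26.3% and 39.5%, against the same shares over all and over nuclear protein-coding genes). NOTCH1 rose from 2039, 2046, 2107 and 2200 to 4106, 3983, 4231 and 4171 (log2 0.97, limma adjusted p = 1.20e-11), with its ligand DLL4 (1.37) and the target HEY2 (1.43), while HES1 was at 0.06. The BMP targets ID1, ID2, ID3 and SMAD6 fell by 1.20, 1.13, 1.11 and 1.95, and ID4 rose by 1.12.

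The excess libraries were also set against the 2 cysteine-free libraries, a comparison that shares the excess libraries with that above. By limma 13918 of 28519 genes (48.8%) differed, 7094 higher and 6824 lower in excess. The list counts that follow stand against these numbers. Shares over protein-coding genes alone are not given for this comparison. Against cysteine-free medium the unfolded protein response list was higher in 19 and lower in 3 of 26 members, the NRF2 list in 17 and 5 of 23 and the p53 list in 30 and 2 of 37. Complex I genes were lower in 29 and higher in 0 of 37 and sterol genes lower in 22 and higher in 1 of 24. Amino acid synthesis, in contrast, was higher in 2 and lower in 12 of 20, and the cytosolic aminoacyl-tRNA synthetases were higher in 6 and lower in 7 of 20. Heat shock chaperones were lower in 12 and higher in 4 of 19, ribosome biogenesis in 27 and 8 of 45 and the proteasome in 14 and 6 of 44. In cysteine-free against complete medium the medians of these last 3 lists were -0.68, -0.25 and -0.25, below 0 as in excess.

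GDF15 was at 33.0 and 36.0 in cysteine-free medium, within the range of complete medium, and 5.32 higher on the log2 scale in excess (limma adjusted p = 4.58e-24). TRIB3 was at 2462 and 2880 without cysteine, above complete medium, but still 2.24 higher in excess (limma adjusted p = 1.96e-21). HSPA5 was at 21664 and 23598, below complete medium, and DNAJB9 at 441 and 416. CDKN1A was at 1651 and 1576 and HMOX1 at 560 and 623, 2.39 and 2.17 below excess on the log2 scale.

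For CHAC1 and NUPR1 the test did not tell excess and cysteine-free medium apart. CHAC1 was at 1853 and 1865 without cysteine and 1780 to 2069 in excess (difference 0.04, limma adjusted p = 0.583), and NUPR1 at 1017 and 1023 against 950 to 1133 (0.03, limma adjusted p = 0.736). SLC7A11 was at 9949 and 10498 without cysteine, between complete and excess medium and 0.75 higher in excess on the log2 scale (limma adjusted p = 1.08e-13). CTH was at 4568 and 4755, also 0.75 higher in excess (limma adjusted p = 6.44e-14). PCK2 was at 7026 and 7067 without cysteine and 1.04 lower in excess (limma adjusted p = 2.49e-15), and DDIT4 at 6994 and 6976 and 0.68 lower in excess. With 2 cysteine-free libraries, a p that misses the threshold does not show that the media acted alike.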

How the data were processed

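Poly(A) RNA of 10 HEK293T libraries was sequenced on an Element AVITI instrument. The authors aligned reads to GRCh38 with STAR 2.7.10b; the study's methods name featureCounts and the submitters' processing notes HTSeq for counting. The study's methods state that reads falling on several genes were dropped, by which genes with shared exon bases may be undercounted. Yet the unnamed lncRNA on the strand of ASNS had 99.5% of its value. MIR636, which shares exon bases and strand with SRSF2, had means of 604 in complete and 285 in excess medium. Reads may thus also have been counted for both genes of a pair, which was not tested. Whether counting used strand is not given in the sources used here. The deposited values are a signal in which the authors divided each gene's read count by a DESeq2 size factor per library. All values in every library came out as whole reads within 0.01 of a read, which gave 34836014 to 61654861 reads on genes per library. No sample column was left without a label. Columns were assigned by the labels.

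Genes with 10 or more in at least 3 of the 8 excess and complete libraries were kept. The main test was limma 3.58.1 (R 4.3.3) on log2(value + 1), with Benjamini-Hochberg adjustment over all 28519 genes and a call at an adjusted p of 0.01 or less. Fold changes are on that scale and understate the change of low genes. edgeR 4.0.16 and DESeq2 1.42.0 were run on the recovered reads as alternatives, and the scripts were tested on simulated data. Excess was compared with cysteine-free medium in the same way. Gene positions came from GENCODE 44, which matched 61463 of 78894 gene IDs; of the kept genes 14209 share exon bases with another gene, 11488 do not and 2822 were not matched. Pairs of replicates differed by more than sampling noise (chi-square per degree of freedom 3.57 to 14.2).

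Genes were named by rule: the 12 largest increases and 12 largest decreases among called protein-coding genes whose groups do not overlap and whose higher group averaged at least 100, the first member of each list, and up to 2 called members with the largest change in each direction per list. Other members given were chosen after their values were seen. The members and lists were chosen with earlier results of these data known. Lists are described by counts and medians, with no test of the list. Some members that count in the lists are not reported here by name.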

Additional observations from a re-analysis of the deposited data

Results flagged for a closer look

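In 23 of 524 groups of 4 libraries examined, 1 library lay far from the other 3, with a gap to its nearest neighbour that took a larger share of the group's range than Dixon's 95% critical value for 4 samples. Chance gives about 1 in 20, or 26.2 such groups. Among genes, the share of the range taken by the gap was 0.930 for PYCR3 in excess medium (replicate 3 highest), 0.931 for WARS1 in excess (replicate 1 lowest), 0.911 for CCNE2 in excess (replicate 3 lowest) and 0.913 for PIF1 in excess (replicate 2 lowest). In complete medium replicate 1 was highest for GCLC (0.941), GINS4 (0.886) and CCNB1 (0.878). Replicate 3 was lowest for EARS2 (0.840), GSTM4 (0.950), NDUFS1 (0.875), OGDH (0.868) and VHL (0.931) and highest for CLK4 (0.874). Replicate 4 was lowest for SUCLG2 (0.860) and NUF2 (0.911).

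Among the medians over each list's members of the log2 level relative to the mean of complete medium, within the complete libraries, replicate 1 was highest for the integrated stress response (0.872), complexes II to V (0.840), fatty acid synthesis (0.865), the proteasome (0.918) and the cullin ligase list (0.833), and replicate 3 lowest for metallothioneins and metal carriers (0.841). In excess medium replicate 1 was lowest for the proteasome (0.871) and replicate 4 highest for replication and G1/S genes (0.854).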

How the results depend on the processing

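The number of genes called in excess against complete medium was 13373 and lay between 11973 and 13692 when 1 library was left out. It was 13538 with edgeR, 13833 with DESeq2, 13305 and 13619 with pseudocounts of 0.5 and 10, 13038 of 56376 genes without the filter and 12369 of 20949 genes with a minimum of 50. It fell to 2935 with a 2-fold change required as well, of which 63.1% were higher. Among the 11488 genes that share no exon bases, 5408 were called, a share of 47.1% against 46.9% of all genes kept. With equal totals 61.8% of the calls were higher. The replicate numbers did not pair the libraries (correlations of same-numbered deviations of -0.113, 0.0605, 0.0762 and 0.109), and with the replicate block 13368 genes were called, or 12361 in excess against cysteine-free medium. That comparison called 13918 genes and 11610 to 13322 without 1 library. Cysteine-free against complete medium called 4624 genes, but only 1017 to 6309 without 1 library, with the lowest counts when 1 of its 2 cysteine-free libraries was left out (1218 and 1017) and 2961 and 2797 without complete replicate 1 or 2, so no count of its calls is given above. Where 1 of the 2 cysteine-free libraries was left out (11610 and 11666 against excess, 1218 and 1017 against complete), the lone library is assumed to vary like the other group.

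List medians near 0 turned sign by more than the spread between replicates. With equal totals they were 0.04 for amino acid synthesis, 0.08 for selenoproteins, 0.04 for hypoxia and glycolysis, 0.03 for autophagy, 0.04 for the cullin list, 0.09 for G1/S genes, 0.05 for extracellular matrix and 0.02 for Notch, WNT and TGF-beta genes. With quantile normalization they were 0.04 for amino acid synthesis, 0.05 for hypoxia and 0.04 for G1/S genes. Within that spread, selenoproteins also turned to 0.03 with quantile normalization and 0.02 with equal totals over nuclear genes, and G1/S genes to 0.02 with the latter. With overlapping genes left out they were 0.62 for amino acid synthesis, 0.03 for metallothioneins, -0.03 for translation factors and 0.05 for the cullin list. The cause was not tested. Of the 46 lists, 36 had no reversal beyond that spread under any alternative.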
